A study of Homo sapiens with 2 samples.

Results

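B-lineage genes and lymphoid transcription factors were examined in L-428, an established Hodgkin's lymphoma (HL) cell line, as a list of 40 named genes. Members were taken as all probe sets whose only gene symbol in the platform annotation was on this list, which gave 79 probe sets of 37 genes, out of 19065 single-symbol probe sets of 11963 genes. No probe set carried EBF1, POU2F1 or TCF7 as its only symbol, so these 3 members have no value. RNA came from 2 populations, 1 array each: DUSP5 knock-down cells, which had received the plasmid pcDNA6.2-GW/EmGFP-miR-DUSP5, and control cells, which had received pcDNA6.2-GW/EmGFP-miR-neg in its place. Both vectors carry EmGFP, a green fluorescent protein, so both populations share the plasmid and the fluorescent protein. The time between transfection and RNA extraction is not given in the sources used here.

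Mature B cells carry a receptor for antigen whose signal runs through the chains CD79A and CD79B to the kinases LYN, SYK and BTK, the adaptor BLNK and the phospholipase PLCG2. The transcription factors EBF1, PAX5 and TCF3, with the octamer factor POU2F2 and its coactivator POU2AF1, keep the genes of this receptor active. The tumor cells of HL descend from B cells but are known for the loss of most of this program, and for factors of other lineages, such as GATA3, NOTCH1 and ID2, an inhibitor that binds TCF3 and keeps it off DNA.

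The values were signal intensities on Affymetrix HG_133A microarrays, which the authors had brought to a common target intensity of 500. A probe set was called on when the mean of its 2 signals was at least 200, and a gene was called on by its brightest probe set. Off means only that the probe set stayed under this mean, since brightness also depends on how well the probes bind. The log2 ratio is the knock-down signal over the control signal. With 1 array per condition no test was possible, no p-value was computed, and genes at least 1.5-fold lower or higher were counted. The error of a ratio was taken as the standard deviation (SD) of the ratios of different probe sets that share a gene and a band of brightness. It was 1.20 for mean signals below 100, 0.75 up to 200, 0.42 up to 500, 0.36 up to 1000, 0.30 up to 3000 and 0.27 beyond. This SD covers probe error and not the spread between cultures. In a bulk extract, fewer cells with a transcript and less transcript per cell cannot be told apart.

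The targeted gene DUSP5, a phosphatase of ERK, had a signal of 368 in knock-down cells and 628 in control cells at its only probe set. This was 58.6% of control, a log2 ratio of -0.77 with an SD of 0.42. The median signal of all probe sets was 164 on the knock-down array and 161 on the control array. Of 13 markers of HL cells, 12 were on. Of these, 3 (TNFRSF9, FUT4 and IL13) were at least 1.5-fold lower in knock-down cells and 2 (TNFRSF8 and CCL17) were higher. Among all genes on, 19.0% were that much lower and 15.6% higher. TNFRSF8, the CD30 antigen, gave 3618 in knock-down cells and 1724 in control cells, and the chemokine CCL17 gave 6019 in knock-down cells and 3022 in control cells. The log2 ratios of TNFRSF9, FUT4 and the cytokine IL13 were -1.93, -1.25 and -0.85 at their brightest probe sets. The other FUT4 probe set, also on, went the other way, at 0.35. Of 20 T-cell and NK genes with a probe set, 2 were on, the adaptor SH2D1A, at 760.1 in knock-down cells and 961 in control cells, and PTCRA, a chain of the pre-T-cell receptor, at 395 in knock-down cells and 309.6 in control cells. The whole list ran from 6.61 to 760.1 in knock-down cells and from 4.44 to 961 in control cells. Among those off, the cytotoxic granule genes GZMB and GNLY gave 107 and 104 in knock-down cells and 225 and 10.4 in control cells. None of the 11 genes of this list taken as defining markers (CD3 chains, CD2, CD5 and others) was on, with signals of 9.15 to 189 in knock-down cells and 13.6 to 89.8 in control cells. The highest of these 11 was CD3D, at 189 in knock-down cells and 27.3 in control cells. None of the 10 myeloid markers with a probe set was on. The part of these markers in the ratios given below was not tested.

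Of the 37 members with a probe set, 19 were on and 18 were off, which is 51.4% on. Over all genes 52.7% were on. Of the 79 member probe sets 39 were on, against 47.4% of all probe sets. The share varied over the 3 groups, with no test possible. Among surface and receptor signalling genes 5 of 18 were on, among B-cell factors 11 of 14, and among T-cell and repressor factors 3 of 5. The members nearest to the limit from outside were FCER2, POU2F2 and CD48, with mean signals of 191, 190.1 and 171.5. The nearest from inside was PAX5, at 239.6.

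**Figure D1:**
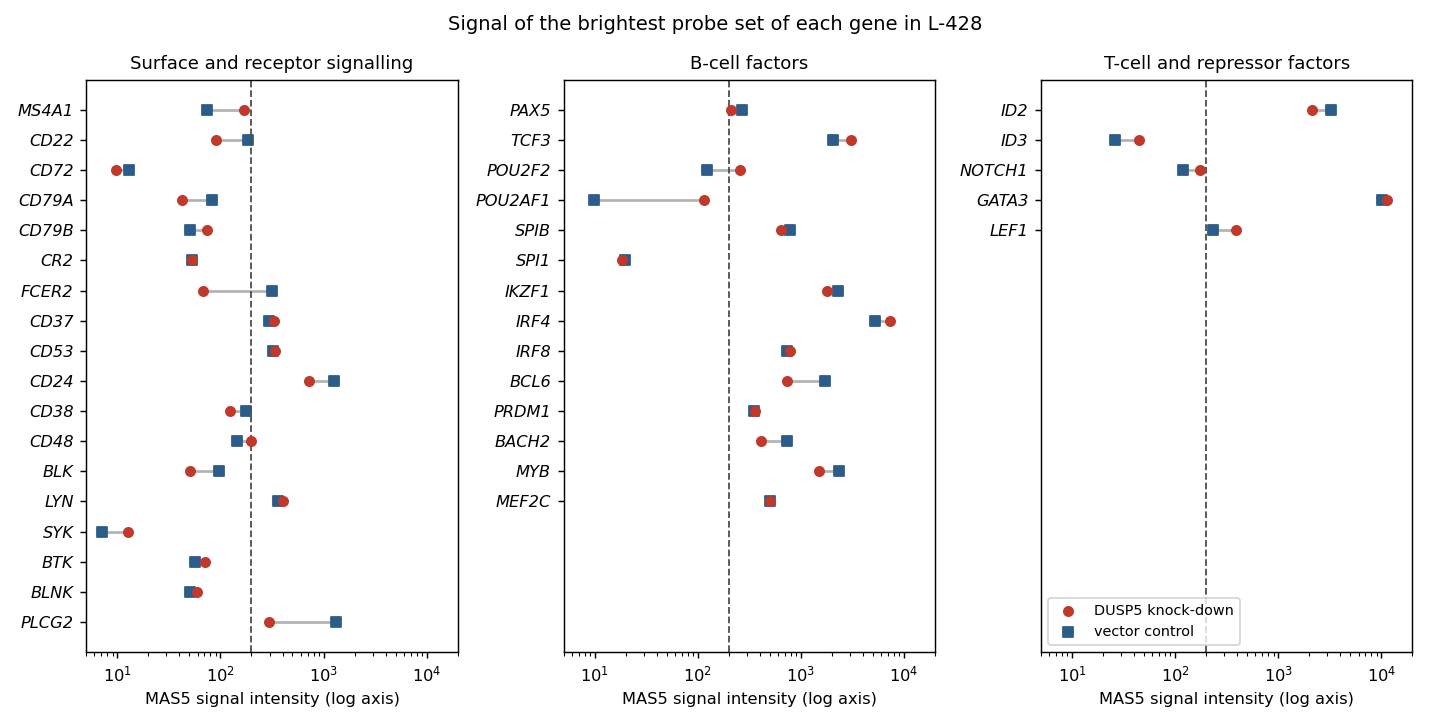
Signal intensities (log axis) of the brightest probe set of each of 37 genes in DUSP5 knock-down cells (red circles) and control cells (blue squares), 1 array each, in 3 groups. The dashed line marks a signal of 200. Most surface and receptor signalling genes lie left of the line and most B-cell factors right of it.

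Most of the antigen receptor and its immediate signalling chain was off in both populations. CD79A and CD79B, the signalling chains of the receptor, had signals of 42.3 and 73.3 in knock-down cells and of 82.3 and 50.5 in control cells. Among the kinases, SYK was the dimmest, with 12.8 and 10.4 in knock-down cells and 7.09 and 5.94 in control cells at its 2 probe sets. BTK gave 71.3 in knock-down cells and 57.2 in control cells, and the adaptor BLNK 59.1 in knock-down cells and 50.9 in control cells. All of these signals lay under 100, where the SD between probe sets was 1.20, so no direction can be read from them. BLK, a kinase of the SRC family found in B cells, stayed under 100 on both arrays at both probe sets as well.

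The classical surface antigens of B cells were likewise off. MS4A1, which encodes CD20, gave 169.5 in knock-down cells and 74.9 in control cells at one probe set, and 94.0 in knock-down cells and 85.7 in control cells at the other. CD22, an inhibitory co-receptor, reached 90.7 in knock-down cells and 187 in control cells at the brightest of 4 probe sets, and the other 3 probe sets stayed under 100 on both arrays. CD72, a further inhibitory receptor, gave 9.66 in knock-down cells and 12.8 in control cells. CR2, the complement receptor CD21 and entry receptor of Epstein-Barr virus, gave 53.4 in knock-down cells and 53.0 in control cells. CD38, an ectoenzyme of activated and plasma cells, and CD48, an adhesion molecule, lay between 100 and 200 on both arrays. Of the 13 off genes in this group, 8 had signals under 100 on both arrays.

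FCER2, which encodes the low-affinity IgE receptor CD23, was off by its mean but above 200 in control cells alone. Its brighter probe set gave 67.7 in knock-down cells and 313 in control cells, a log2 ratio of -2.21 with an SD of 0.75. The dimmer gave 6.30 in knock-down cells and 96.1 in control cells, a log2 ratio of -3.93 with an SD of 1.20. Both probe sets thus had the lower signal in knock-down cells, by more than 2 SD. These are dim signals and FCER2 was not counted among the genes below.

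Of the receptor signalling genes, LYN and PLCG2 were on. LYN, the kinase that starts receptor signalling, gave 406, 385 and 289.9 in knock-down cells and 363, 267 and 264 in control cells at its 3 probe sets. Its log2 ratios of 0.16, 0.53 and 0.14 were all above 0 and all under 1.5-fold. PLCG2, the phospholipase that turns the receptor signal into calcium release, gave 295 in knock-down cells and 1315 in control cells at its only probe set. The log2 ratio of -2.15, with an SD of 0.36, was the lowest of all 19 members that were on.

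The leukocyte antigens CD37 and CD53, both tetraspanins of the cell membrane, were on in both populations. CD37 gave 330.4 in knock-down cells and 294 in control cells. CD53 gave 341 in knock-down cells and 326 in control cells. Their log2 ratios of 0.17 and 0.07 were under 1 SD of 0.42. CD24, a small glycoprotein of early B cells and many tumors, had 6 probe sets, of which 4 were on. These 4 gave 725, 480, 177 and 214 in knock-down cells and 1250.1, 1469, 619 and 266 in control cells. All 4 were lower in knock-down cells, with log2 ratios of -0.79, -1.61, -1.81 and -0.31. The 2 dimmer probe sets gave -0.60 and 0.64, with an SD of 0.75. CD24 has near-identical processed copies in the genome and each of its probe sets is of type _s_at or _x_at, designs that may bind more than one transcript, so its values are uncertain.

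In surface and receptor signalling, 2 of the 5 genes on (CD24 and PLCG2) were at least 1.5-fold lower in knock-down cells and none was higher. Of all 6301 genes on, 19.0% were that much lower and 15.6% that much higher. The median log2 ratio of the 5 genes was 0.07, against 0.01 for all genes on. With mean signals from 100 included, FCER2 and CD22 entered on the lower side, 4 of 10 genes were lower, 1 was higher and the median was -0.23. Among all genes with such signals 18.3% were lower and 17.2% higher, with a median of 0.04.

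Most B-cell factors were on, in contrast to the surface genes. PAX5, the factor that commits cells to the B lineage, was on at one probe set, with 211 in knock-down cells and 268 in control cells and a log2 ratio of -0.35 (SD 0.42). Its other probe set was dim, at 30.2 in knock-down cells and 7.60 in control cells. PAX5 is known for low but retained expression in HL cells. SPIB, an ETS factor of B cells, gave 648 in knock-down cells and 787 in control cells, whereas SPI1, its relative PU.1, was off at 18.3 in knock-down cells and 19.7 in control cells. IRF8, a regulator of germinal center genes, gave 784 in knock-down cells and 741 in control cells. The ratios of PAX5, SPIB and IRF8 all lay within 1 SD.

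The octamer factor POU2F2 and its coactivator POU2AF1 were off by their mean signals. POU2F2 gave 257 and 21.0 in knock-down cells and 123 and 6.09 in control cells at its 2 probe sets, with log2 ratios of 1.07 and 1.79. POU2AF1 gave 116 in knock-down cells and 9.93 in control cells, a log2 ratio of 3.55 with an SD of 1.20. All 3 probe sets had the higher signal in knock-down cells, but all lay where ratios are imprecise. By the brightest probe sets, POU2F2 was the only member above 200 on the knock-down array and under 200 on the control array, and FCER2 was the only one with the opposite pattern.

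TCF3, which encodes the E-box factor E2A, had 13 probe sets in the platform annotation, and these did not go one way. Whether all 13 match TCF3 transcripts was not checked, which limits what their spread and their mean say about this gene. The 8 probe sets that were on gave log2 ratios from -0.49 to 1.25, with 6 above 0 and 2 below. The brightest gave 3043 in knock-down cells and 2033 in control cells, a log2 ratio of 0.58 that fell just short of 1.5-fold. After quantile normalization it was 0.59 and passed, while the mean of all 13 probe sets was 0.04. IKZF1, the lymphoid regulator Ikaros, was also split, with 1809, 607 and 527 in knock-down cells and 2287, 600.3 and 373 in control cells at its 3 probe sets that were on. Their log2 ratios were -0.34, 0.02 and 0.50. IRF4, a factor of activated B cells and plasma cells on which HL cells depend, was brighter in knock-down cells at all 3 of its probe sets. It gave 7311, 1772 and 39.6 in knock-down cells and 5241, 814 and 16.9 in control cells, with log2 ratios of 0.48, 1.12 and 1.23. The brightest remained under 1.5-fold, and its ratio was 0.24 after quantile normalization and 0.94, past 1.5-fold, when all 3 probe sets were averaged.

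The 3 B-cell factors that were at least 1.5-fold lower were BCL6, BACH2 and MYB. BCL6, the repressor that holds the germinal center program, gave 734 and 387 in knock-down cells and 1698 and 533 in control cells. Its log2 ratios were -1.21 (SD 0.30) and -0.46 (SD 0.42), and only the first passed 1.5-fold. BACH2, which opposes plasma cell differentiation by repressing PRDM1, gave 414 in knock-down cells and 733 in control cells, a log2 ratio of -0.82 with an SD of 0.36. MYB, a factor of lymphoid progenitors and dividing cells, gave 1491 in knock-down cells and 2367 in control cells, a log2 ratio of -0.67 with an SD of 0.30. With the mean of both MYB probe sets this ratio was -0.57, under 1.5-fold.

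PRDM1, the plasma cell repressor BLIMP1 that is itself a target of BCL6 and BACH2, had almost the same signal on both arrays. It gave 355 in knock-down cells and 354 in control cells, a log2 ratio of 0.00 with an SD of 0.42. MEF2C, a factor that acts downstream of receptor signalling, gave 498 in knock-down cells and 503 in control cells at its brightest probe set, and its 3 ratios ran from -0.02 to 0.27. Of 11 B-cell factors on, 3 were thus lower and none was higher, with a median log2 ratio of -0.28. Among all genes on, 19.0% were lower and 15.6% higher, with a median of 0.01. By probe sets the balance was even, with 3 of 23 lower and 3 of 23 higher, against 19.1% lower and 15.4% higher among all probe sets on. The median over the genes on was 0.02 when all probe sets of a gene were averaged. At least 2-fold lower were 2 of the 19 members on, PLCG2 and BCL6, against 7.30% of all genes on.

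**Figure D2:**
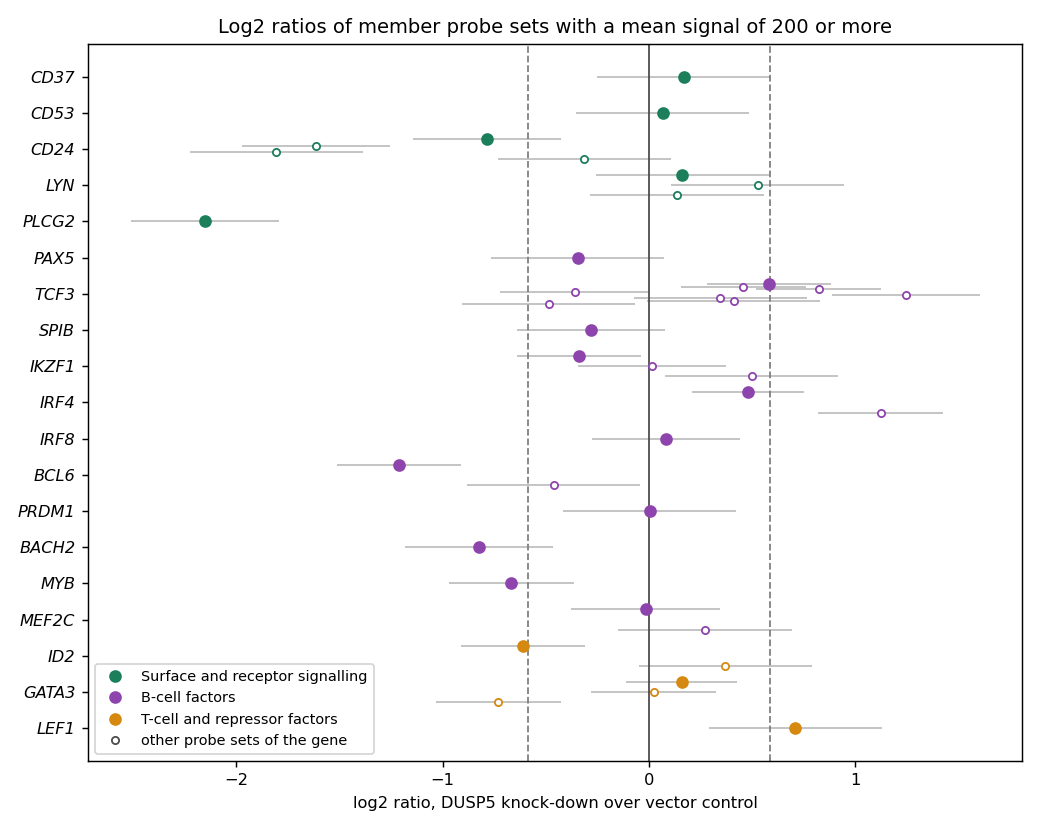
Log2 ratio (DUSP5 knock-down over vector control) of the 39 member probe sets that were on, by gene. Filled points are the brightest probe set of a gene, open points the others, bars 1 SD as defined in the text, and dashed lines 1.5-fold. PLCG2 lies farthest to the left at -2.15, and the probe sets of TCF3 spread from -0.49 to 1.25.

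The T-cell and repressor factors differed among themselves. GATA3, the master factor of type 2 helper T cells, gave 11309.6, 1464 and 852 in knock-down cells and 10131, 1441 and 1413 in control cells at its 3 probe sets, all of them on. The log2 ratios were 0.16, 0.02 and -0.73, so that the dimmest was lower by more than 2 SD of 0.30 while the other two were within 1 SD. For the brightest probe set the sign turned with the scaling, to -0.22 after quantile normalization and to -0.20 with a lowess fit on signal subtracted. No direction can therefore be given for GATA3.

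ID2, the inhibitor of TCF3, gave 2101 in knock-down cells and 3211 in control cells at its brightest probe set, a log2 ratio of -0.61 with an SD of 0.30. Its second probe set went the other way, with 294 in knock-down cells and 227 in control cells and a log2 ratio of 0.37. The mean of the 2 ratios was -0.12. A further ID2 probe set carried another gene symbol as well and was left out. ID3, a related inhibitor, was off at 44.7 in knock-down cells and 26.3 in control cells, as was ID1, at 83.0 in knock-down cells and 83.6 in control cells. MSC (ABF1), a basic helix-loop-helix repressor that also binds TCF3 and is found in HL cells, gave 787 in knock-down cells and 941 in control cells, a log2 ratio of -0.26 with an SD of 0.36. In both populations ID2 and MSC were therefore on and ID3 and ID1 off.

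LEF1, a T-cell factor that acts with beta-catenin, was the only member on that was at least 1.5-fold higher. It gave 385 in knock-down cells and 235 in control cells, a log2 ratio of 0.71 with an SD of 0.42. The 2 dimmer LEF1 probe sets gave 0.67 and 0.08, and the mean of all 3 was 0.49, under 1.5-fold. NOTCH1, a receptor that steers progenitors to the T lineage, was off at 174 in knock-down cells and 119 in control cells, with a log2 ratio of 0.55 and an SD of 0.75. Of the 3 genes on in this group 1 was lower and 1 was higher, against 19.0% and 15.6% of all genes on. Against a median log2 ratio of 0.01 for all genes on, that of the group was 0.16, which is the value of GATA3. This median turned to -0.22 after quantile normalization, to -0.20 with the lowess fit subtracted, to -0.15 with 0 lower and 0 higher when probe sets were averaged, and to -0.73 without the types _s_at and _x_at, where GATA3 alone was on.

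Over all groups, 6 of 19 members on were at least 1.5-fold lower and 1 was higher, with a median log2 ratio of -0.02 and 10 of 19 below 0. Over all genes on, 19.0% were lower and 15.6% higher, with a median of 0.01 and 3125 of 6301 below 0. The lower genes, in order, were PLCG2, BCL6, BACH2, CD24, MYB and ID2. All 7 ratios past 1.5-fold exceeded 1 SD between probe sets, but the rule fixes this for any gene on. A 1.5-fold change is a log2 ratio of 0.585, and the SD at these signals is at most 0.42. All but the ratio of LEF1 exceeded 2 SD, a limit that lies near 1.5-fold for signals above 1000. By probe sets, 9 of 39 were lower and 4 were higher, against 19.1% and 15.4% of all probe sets on. Probe sets of a member often disagreed: of 9 members with at least 2 probe sets on, 4 had all of them on the same side of 0. Over all genes this share was 68.2% of 1897. The 2 shares were not matched for the number of probe sets on per gene, which was 8 for TCF3. More probe sets make agreement less likely, so the members cannot be called more discordant.

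**Figure D3:**
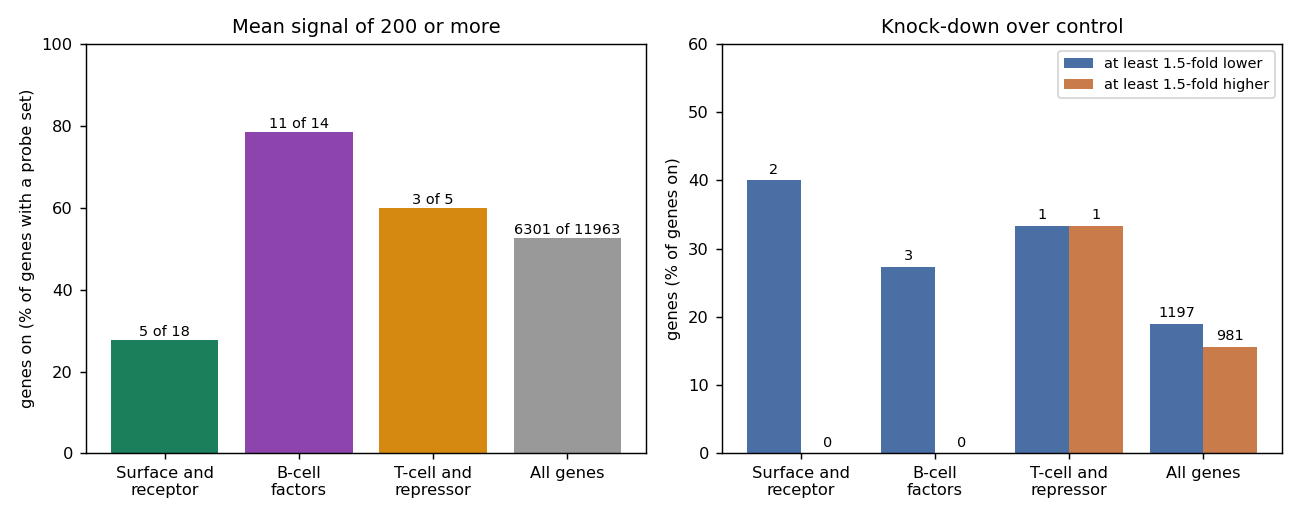
Left, percent of genes that were on in each group and over all 11963 genes. Right, percent of the genes on that were at least 1.5-fold lower (blue) or higher (orange) on the knock-down array, with counts above the bars. The surface genes have the lowest share on (5 of 18) and the B-cell factors the highest (11 of 14).

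**Figure D4:**
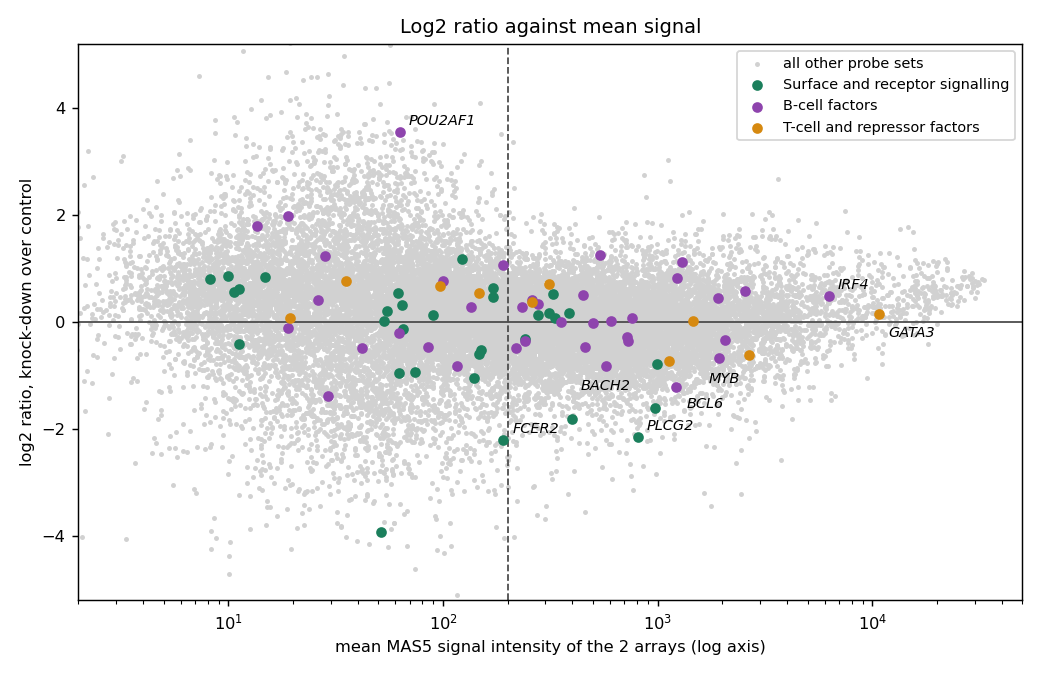
Log2 ratio (knock-down over control) against the mean signal of the 2 arrays (log axis) for 79 member probe sets (coloured by group) and 22136 others (grey), of which 59 lie outside the axes. The dashed line marks a mean signal of 200. Left of it the points spread widely, and POU2AF1 (3.55) and FCER2 (-2.21) lie there, while PLCG2 (-2.15) and BCL6 (-1.21) lie right of it.

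Promoter sequences are shown for the 3 members whose brightest probe set was at least 2-fold lower in knock-down cells and above 200 in control cells (FCER2, PLCG2 and BCL6), and for CD79A as a textbook target of TCF3 that was off. They were taken from RefSeq (GRCh38.p14) and run 5′ to 3′ from 250 bases before to 50 bases after each annotated start, with matches to 3 motifs in capitals. The motifs, searched on both strands, were the octamer ATGCAAAT bound by POU2F2, the E box CAGGTG bound by TCF3, and TTCNNNGAA, which resembles the sites of BCL6 and of STAT factors. None of the 7 matches overlapped another.
FCER2, chr19:7702082-7702381, minus strand: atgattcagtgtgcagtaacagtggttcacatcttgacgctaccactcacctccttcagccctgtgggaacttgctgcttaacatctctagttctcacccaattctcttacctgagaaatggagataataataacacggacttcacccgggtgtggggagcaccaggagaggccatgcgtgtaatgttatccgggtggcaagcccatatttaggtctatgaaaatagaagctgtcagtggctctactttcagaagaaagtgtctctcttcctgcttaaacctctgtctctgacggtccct
FCER2, chr19:7699392-7699691, minus strand: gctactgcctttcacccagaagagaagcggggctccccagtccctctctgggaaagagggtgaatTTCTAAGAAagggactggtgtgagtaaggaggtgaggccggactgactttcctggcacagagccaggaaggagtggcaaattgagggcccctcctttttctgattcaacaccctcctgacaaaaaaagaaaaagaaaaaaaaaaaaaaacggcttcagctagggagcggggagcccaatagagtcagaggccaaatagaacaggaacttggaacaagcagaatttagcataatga
PLCG2, chr16:81738791-81739090, plus strand: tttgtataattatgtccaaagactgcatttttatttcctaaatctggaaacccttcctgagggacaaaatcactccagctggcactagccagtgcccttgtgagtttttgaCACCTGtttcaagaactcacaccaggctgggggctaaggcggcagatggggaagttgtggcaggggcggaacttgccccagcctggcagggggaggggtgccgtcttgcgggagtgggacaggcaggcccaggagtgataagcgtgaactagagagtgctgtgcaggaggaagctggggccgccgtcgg
BCL6, chr3:187745419-187745718, minus strand: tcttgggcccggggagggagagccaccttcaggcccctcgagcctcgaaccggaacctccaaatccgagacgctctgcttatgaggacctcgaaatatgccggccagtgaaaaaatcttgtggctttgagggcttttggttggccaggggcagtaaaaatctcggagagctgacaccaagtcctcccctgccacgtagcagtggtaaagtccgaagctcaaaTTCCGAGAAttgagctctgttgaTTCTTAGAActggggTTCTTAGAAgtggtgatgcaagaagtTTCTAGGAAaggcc
BCL6, chr3:187736452-187736751, minus strand: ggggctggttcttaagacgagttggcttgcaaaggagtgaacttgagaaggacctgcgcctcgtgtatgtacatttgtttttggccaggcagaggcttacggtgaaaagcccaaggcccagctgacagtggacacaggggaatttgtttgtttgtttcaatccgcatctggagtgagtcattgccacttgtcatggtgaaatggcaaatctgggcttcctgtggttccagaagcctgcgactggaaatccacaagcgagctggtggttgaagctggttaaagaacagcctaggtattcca
CD79A, chr19:41877029-41877328, plus strand: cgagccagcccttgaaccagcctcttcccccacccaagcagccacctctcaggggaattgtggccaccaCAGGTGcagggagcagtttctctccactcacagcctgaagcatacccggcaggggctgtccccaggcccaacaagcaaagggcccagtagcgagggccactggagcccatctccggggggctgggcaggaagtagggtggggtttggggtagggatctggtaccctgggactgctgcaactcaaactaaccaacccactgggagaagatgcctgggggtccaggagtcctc

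BCL6 had 4 matches to TTCNNNGAA around one of its 2 starts and none at the other. FCER2 had 1 such match, at one of its 2 starts. PLCG2 and CD79A each had 1 E box, read on opposite strands. The table held 59 promoters of 33 members. Of these promoters 3 held the octamer, 15 the E box and 4 TTCNNNGAA, or 5.08%, 25.4% and 6.78%, against 1.77%, 20.6% and 7.66% of all 35116 promoters. The genes with an octamer were CD53, MEF2C and POU2F1, and those with TTCNNNGAA were BCL6, FCER2, ID3 and MEF2C. A match describes letters and not a bound site. PLCG2, BACH2, CD24, MYB and ID2, which were also lower, had no match to TTCNNNGAA in these windows. MEF2C, with a log2 ratio of -0.02, and ID3, which was off, had a match. A link between motif and ratio was not tested.

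Further genes of the same pathways were read from separate lists, which were chosen with earlier results of these data known. Of 27 further genes of the B-cell receptor cascade, 23 had a probe set and 15 were on, with 5 at least 1.5-fold lower and 3 higher, against 19.0% lower and 15.6% higher among all genes on. PRKCB, the protein kinase C that follows PLCG2, gave 414 in knock-down cells and 831 in control cells, a log2 ratio of -1.004 with an SD of 0.36. FYN, a kinase of the SRC family, gave 435 in knock-down cells and 913 in control cells, and its 3 probe sets all went the same way, from -1.18 to -1.05. At the other end were PIK3CD, a catalytic subunit of PI3 kinase, and PTPN6, the phosphatase SHP1 that dampens receptor signalling, at 1.06 and 0.74. The list median was -0.27.

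Of 36 further lymphoid transcription factors, 18 were on, of which 6 were at least 1.5-fold lower and none was higher, with a median log2 ratio of -0.49. Among all genes on, 19.0% were that much lower and 15.6% higher, with a median of 0.01. Aiolos (IKZF3), a relative of Ikaros in mature B cells, gave 165 in knock-down cells and 551 in control cells, a log2 ratio of -1.73 with an SD of 0.42. ELF1, an ETS factor, gave 139.6 in knock-down cells and 421 in control cells, and its 2 probe sets had log2 ratios of -1.59 and -0.89. The highest were GATA2 (0.52) and TOX (0.31), both under 1.5-fold. Of these 18 genes 15 had ratios below 0, against 10 of the 19 members on and 3125 of all 6301 genes on. Since the list was chosen with earlier results of these data known, these counts describe the list and test nothing.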

How the data were processed

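The authors processed Cel files in Affymetrix Expression Console with the MicroarraySuite algorithm (MAS5, named in the submitters' processing notes) and deposited linear signal intensities at a common target of 500. No detection calls were used. No further normalization was applied. Symbols came from the platform annotation, and RefSeq genes of GRCh38.p14 included all 40 members. Of 22283 probe sets, 68 controls were left out. Each gene was represented by its brightest probe set. The SD between probe sets was pooled over genes with at least 2 probe sets in a band of signal. Members and lists were chosen with earlier results of these data known. All members and DUSP5 were named, with ID1, MSC and, from each further list, up to 2 genes on with the highest and 2 with the lowest ratio. Also named were IL13, as a marker past 1.5-fold, and some off genes of these lists, such as CD3D, GZMB, GNLY and the pre-B-cell genes. The alternatives were quantile normalization, centring, a lowess fit (span 0.3) subtracted, 32 added to each signal, other filters and size rules, the mean of all probe sets, and types _s_at and _x_at left out. The steps were tested on simulated data. Python 3.11.15, numpy 2.4.6, pandas 2.3.3, statsmodels 0.14.6 and matplotlib 3.10.9 were used.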

Additional observations from a re-analysis of the deposited data

How the results depend on the processing

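No paired analysis was possible because there is only 1 array for each population. Recomputed under the alternatives, 98 of 109 member ratios shifted by less than the SD between probe sets, 11 by more, and none of the ratios past 1.5-fold changed sign. DUSP5 stayed between -0.77 and -0.69. PLCG2 and BCL6 kept at least 1.5-fold in all 6 settings that gave them a ratio, and BACH2 and CD24 in all 5. Some of these settings could not change the value. PLCG2 and BACH2 have 1 probe set, so averaging probe sets left their ratios as they were, like those of other members with 1 probe set. Leaving out types _s_at and _x_at did the same for PLCG2 and BCL6, and for other members whose brightest probe set is of neither type. Centring hardly moved any ratio, for example that of DUSP5 from -0.7702 to -0.7714. The count of 98 includes such comparisons. The low signal over background of the off genes limits what can be read from their ratios. The size rule, the subtraction of the lowess fit and the added 32 cannot change which genes are on and gave no value for it. Without a filter every gene with a probe set was counted, so no number of genes on was given. Where values moved, the cause was not tested unless the filter, the size rule or the set of probe sets changed it by construction.

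For surface and receptor signalling, 10 genes were on at a mean signal of at least 100, with 4 lower, 1 higher and a median log2 ratio of -0.23. At 500 or more, 2 were on with a median of -1.47. With no filter 6 were lower and 2 higher, by the 2-fold rule 1 was lower, and without types _s_at and _x_at 1 was lower. For B-cell factors, 1 gene was higher after quantile normalization, with the mean of all probe sets and at 100 or more, but not the same gene. It was TCF3, IRF4 and POU2F2, in that order. With no filter 2 B-cell factors were higher. Their median was -0.15 at 100 or more, -0.061 with no filter, 0.023 with the mean of all probe sets and -0.10 without types _s_at and _x_at, and 1 was lower by the 2-fold rule. For T-cell and repressor factors, the median was -0.22 after quantile normalization, -0.20 with the lowess fit subtracted, -0.23 at 500 or more, 0.55 with no filter, -0.15 with the mean of all probe sets and -0.73 without types _s_at and _x_at, where 1 gene was on. None of them was higher at 500 or more or without these types, and 2 were with no filter. By the 2-fold rule, and also when probe sets were averaged, 0 were lower and 0 higher. Over all genes, 55.0% of the genes past 1.5-fold were lower as reported, against 43.1% with no filter, where the median log2 ratio of all genes was 0.11.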

Other observations

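Of 27 further surface and stage genes of the B lineage, 24 had a probe set and 4 were on, against 52.7% of all genes. Of these 4, 1 was at least 1.5-fold lower and 2 were higher, against 19.0% and 15.6% of all genes on. CD44, an adhesion receptor for hyaluronan, was the lowest of the 4. Of its 8 probe sets 6 were on, all lower in knock-down cells, with log2 ratios from -2.21 to -0.80. With those that were off included, the ratios reached up to 0.19. Its brightest probe set gave 673 in knock-down cells and 1168 in control cells. CD74, the invariant chain of MHC class II, gave 23929 in knock-down cells and 14318 in control cells, a log2 ratio of 0.74 with an SD of 0.27. The CD74 ratio was not recomputed under other scalings. At the brightest members, GATA3 and IRF4, quantile normalization took the ratio from 0.16 to -0.22 and from 0.48 to 0.24. SDC1, the plasma cell antigen CD138, gave 273 in knock-down cells and 154 in control cells, a log2 ratio of 0.83 with an SD of 0.42. CD40, a receptor for T-cell help, had log2 ratios of 0.21 to 0.40 at its 3 probe sets that were on. The pre-B-cell genes VPREB1, VPREB3, IGLL1, RAG1, RAG2 and DNTT were all off.

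SH2D1A, an adaptor of T and NK cells, was on at all 4 of its probe sets, each lower in knock-down cells, with log2 ratios from -0.97 to -0.30. PTCRA, a chain of the pre-T-cell receptor, was split, with 0.35 at one probe set that was on and -0.30 at the other. Among the HL markers, TNFRSF9, a costimulatory receptor, gave 239 in knock-down cells and 911 in control cells, a log2 ratio of -1.93 with an SD of 0.36. FUT4, which makes the CD15 antigen, was split as well, with a log2 ratio of -1.25 at one probe set and 0.35 at the other.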
